A study of Medicago ruthenica with 9 samples.

Results

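The leaf transcriptome of the forage legume Medicago ruthenica held 52457 unigenes, and 9 of them were annotated as the dehydration-responsive element-binding (DREB) factors DREB1D, DREB1E or DREB3. They were chosen by symbol: the closest SwissProt entry had to carry one of these 3 symbols, and the protein description had to name a dehydration-responsive element-binding protein. The rule gave 2 DREB1D, 1 DREB1E and 6 DREB3 unigenes, which are named by symbol and the DN part of their assembly identifier. The 3 symbols had been picked with the comparison of stressed and watered leaves in view, so the values of that comparison are given as a description, without a p-value, and so are those against rewatered leaves, which use the same stressed libraries.

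The question put to these data was how leaf transcripts differ under drought and after rewatering. Drought-stressed seedlings (DS) went 15 days without water, until relative soil moisture was down to 20%. Rewatered seedlings (RW) were dried in the same way, watered to saturation and harvested 2 days later, and control seedlings (CK) were watered every 3 days and kept above 80% moisture. All were 4 weeks old when the groups were formed, grew 8 to a pot without added nutrients and gave 3 leaf libraries per group, and CK and DS leaves were taken on the same day, before the RW leaves.

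DREB factors are plant transcription factors with an AP2 domain, with which they bind the dehydration-responsive or C-repeat element in the promoters of genes that protect cells against water loss and cold. In Arabidopsis, DREB1D is also known as CBF4, a member of the C-repeat binding factors (CBF) whose transcript rises in drought and with the stress hormone abscisic acid. DREB1E is known there as DDF2, a relative of DDF1, a factor that lowers bioactive gibberellin and dwarfs the plant when overexpressed. DREB3 belongs with TINY to a more distant branch of the family, and TINY joins drought and ethylene responses in Arabidopsis.

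Levels are given as TPM, transcript abundances scaled to a common library total and corrected for transcript length, so that unigenes can be compared with each other. The TPM summed to between 994748 and 996266 per library. The authors report the range of raw sequencing output over the libraries. The read counts behind each value are unknown, and no counting interval can be given. RW 2 stood apart: 3618 unigenes were at 5 TPM or more in it and under 0.5 TPM in the other 8 libraries, against 13 to 166 such unigenes for each other library. The tissue fitted its label, with 40 leaf mesophyll unigenes summing to 36836 to 99884 TPM in DS, 60881 to 84326 TPM in RW and 70112 to 95723 TPM in CK. By contrast, 2 nodule and root unigenes summed to at most 6.82 TPM in any library. A list of 14 seed unigenes summed to 47.3 to 108 TPM over all libraries. The 36 xylem and secondary wall unigenes summed to 48.7 to 229 TPM in DS and 122 to 517 TPM in RW. In CK they summed to 391 to 1233 TPM. Of the 34 tested, limma called 11 lower in DS vs. CK, against 2.57% of all tested unigenes. In DS vs. RW it called 0 of the 34, against 1.79% lower over all tested unigenes. Such a call took a Benjamini-Hochberg adjusted p below 0.05 together with a change of more than 1 on the log2 scale. The part of the xylem unigenes in the results was not tested. In whole leaves, fewer cells of a type and less RNA per cell cannot be told apart.

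The DREB3 unigene TRINITY_DN12650_c0_g1 was the most abundant of the 9 in DS leaves. It was at 262.87, 353.79 and 102.31 TPM in DS 1, 2 and 3, against 5.03, 3.49 and 1.91 TPM in RW and 14.01, 13.29 and 5.33 TPM in CK. Every DS library lay far above every library of the other groups, and every RW library lay below every CK library. Its mean was 239.7 ± 127 TPM in DS, 3.48 ± 1.56 TPM in RW and 10.9 ± 4.82 TPM in CK (SD, n = 3 each). On the log2(TPM + 1) scale, on which all fold changes here were fitted and which understates the change of low unigenes, it was 4.27 higher in DS than in CK (SE 0.50) and 5.64 higher in DS than in RW (SE 0.50).

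DREB1E was represented by a single unigene by symbol, TRINITY_DN13002_c0_g1, which showed the largest DS vs. CK fold change of the 9. Its level was 50.65, 195.93 and 83.86 TPM in DS, against 0.05, 1.74 and 0.57 TPM in RW and 0, 0 and 0.24 TPM in CK. The transcript was thus abundant in each stressed library and at 1.74 TPM or less in all 6 others, and DS 2 held the highest value. The fitted difference on the log2(TPM + 1) scale was 6.47 for DS vs. CK (SE 0.51) and 5.85 for DS vs. RW (SE 0.51). With 2 CK libraries listed at 0, the size depends on the pseudocount, and the DS vs. CK value ran between 4.30 and 9.29 over the settings tried.

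The more abundant DREB1D unigene, TRINITY_DN19932_c1_g3, was at 72.26, 110.44 and 23.2 TPM in DS, against 0.28, 0.71 and 0.34 TPM in RW and 0, 0 and 1.44 TPM in CK. No DS library overlapped another group, and the single CK library with a value, CK 3, was above all 3 RW libraries. Its log2 fold change was 5.44 in DS vs. CK (SE 0.57) and 5.35 in DS vs. RW (SE 0.57). The closest protein to this unigene in the deposited annotation was a DREB 1F-like protein of red clover, although its SwissProt symbol was DREB1D.

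The other DREB1D unigene, TRINITY_DN19813_c1_g2, was far less abundant and far more even. It was at 8.75, 9.54 and 10.16 TPM in DS, at 0.30, 3.11 and 0.29 TPM in RW and at 0.34, 0.27 and 0.13 TPM in CK. The DS libraries were nearly alike and lay above all others, and RW 2 was the only watered library above 1 TPM. The fitted log2 fold change was 3.07 in DS vs. CK (SE 0.46) and 2.46 in DS vs. RW (SE 0.46), and the DS vs. RW value was 3.01 when RW 2 was left out. The closest described protein was a DREB1A of Medicago truncatula, so that its symbol and its description differ. This unigene shared an assembly component with a DREB1C unigene (TRINITY_DN19813_c1_g1), and reads common to both cannot be assigned from TPM.

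**Figure D1:**
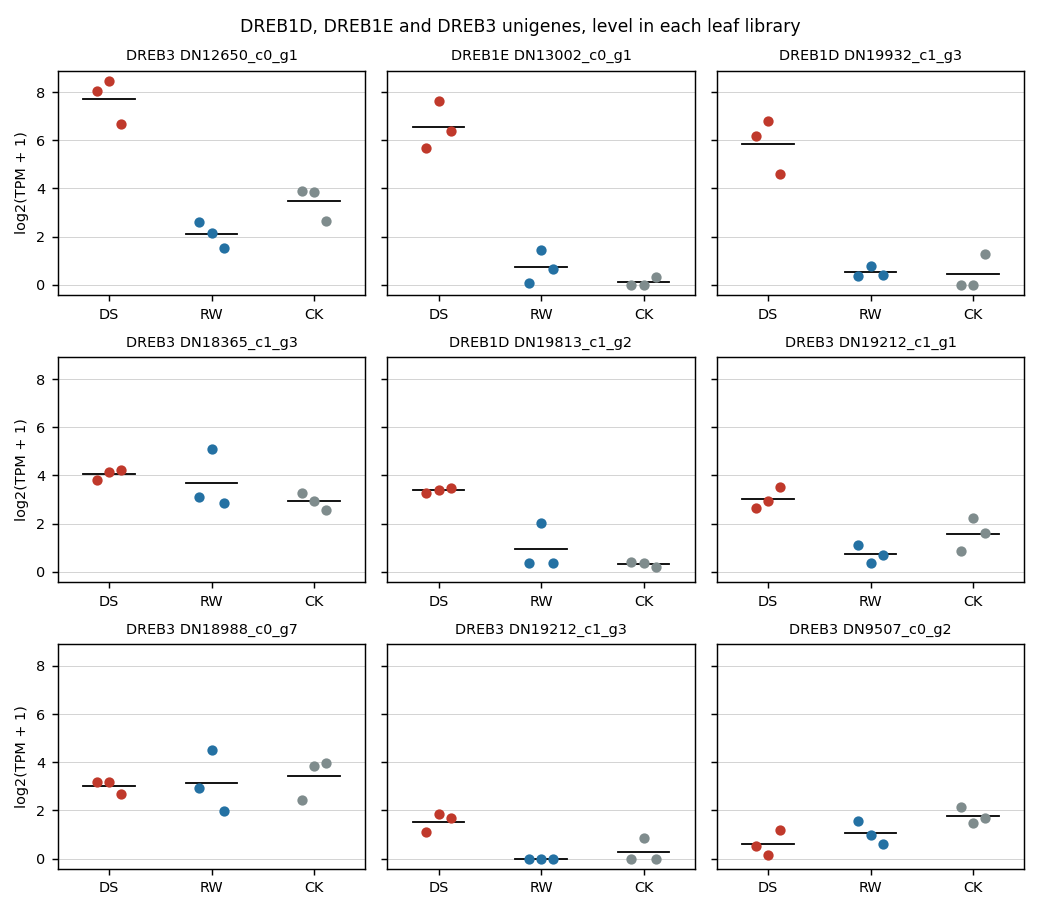
Level of each DREB1D, DREB1E and DREB3 unigene, as log2(TPM + 1), in the 3 libraries of DS, RW and CK (points in replicate order) with the group mean (bar). DREB3 DN12650, DREB1E and both DREB1D unigenes were higher in every DS library than in any RW or CK library, and RW 2 stands high in DREB3 DN18365, DREB3 DN18988 and DREB1D DN19813.

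The remaining 5 DREB3 unigenes did not follow a single pattern. TRINITY_DN18365_c1_g3 was at 13.15, 16.84 and 17.61 TPM in DS, at 7.68, 33.61 and 6.19 TPM in RW and at 8.72, 6.56 and 4.98 TPM in CK. DS lay above CK throughout, but RW 2 held the highest value of all 9 libraries. Its log2 fold change was 1.14 in DS vs. CK (SE 0.52) and 0.37 in DS vs. RW (SE 0.52), and without RW 2 the DS vs. RW value was 1.08 and the DS vs. CK difference passed the threshold.

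TRINITY_DN19212_c1_g1, whose closest described protein was a TINY factor, was at 5.31, 6.57 and 10.57 TPM in DS, against 1.17, 0.28 and 0.60 TPM in RW and 0.84, 3.70 and 2.01 TPM in CK. DS exceeded every other library, and RW and CK overlapped. The log2 fold change was 1.47 in DS vs. CK (SE 0.44) and 2.32 in DS vs. RW (SE 0.44). A short unigene of the same component, TRINITY_DN19212_c1_g3 (468 bp), was at 1.15, 2.58 and 2.17 TPM in DS, was listed at 0 in all 3 RW libraries and had 0, 0.80 and 0 TPM in CK. Both unigenes of the component were thus highest in DS, although they can share reads and are not independent of each other.

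A pair of further unigenes broke the pattern of high DS levels. TRINITY_DN18988_c0_g7, also closest to a TINY factor, was at 8.17, 8.0 and 5.42 TPM in DS, at 6.64, 21.52 and 2.95 TPM in RW and at 4.36, 13.34 and 14.55 TPM in CK, so that the 3 groups overlapped. TRINITY_DN9507_c0_g2 (513 bp) was at 0.43, 0.11 and 1.26 TPM in DS, at 1.96, 0.95 and 0.51 TPM in RW and at 3.38, 1.79 and 2.24 TPM in CK. Every DS library of this low unigene lay below every CK library, with a log2 fold change of -1.15 in DS vs. CK (SE 0.41). A neighbour in the same component, TRINITY_DN9507_c0_g1, had a DREB3 description but no symbol and fell outside the rule.

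Of the 9 unigenes, 4 were called higher and 0 lower in DS vs. CK, where a call needed a limma p below 0.05 after Benjamini-Hochberg adjustment and a log2 fold change beyond 1. Of all 44538 unigenes tested, 2.39% were called higher and 2.57% lower in the same contrast, and since that contrast had guided the choice of the symbols, the count carries no weight of its own. The called ones were DREB3 DN12650, DREB1E and both DREB1D unigenes. In DS vs. RW, 5 of 9 were called higher and 0 lower, with DREB3 DN19212_c1_g1 added, against a background of 2.15% higher and 1.79% lower. Without DS 2, DS 3 or RW 3 the DS vs. RW count was 3. The median log2 fold change was 1.47 over the 9 unigenes and -0.19 over all tested ones in DS vs. CK, and 2.32 and -0.17 in DS vs. RW. All 9 passed the filter of 1 TPM in 3 libraries, but 4 of them (DREB1E, both DREB1D unigenes and DREB3 DN19212_c1_g3) passed it only through their DS libraries, so these counts and medians support nothing.

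**Figure D2:**
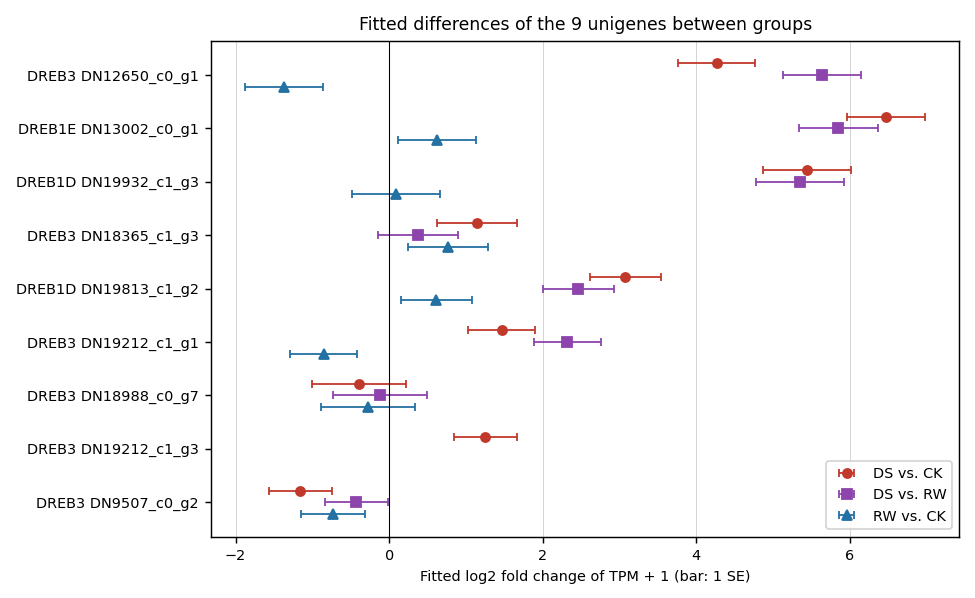
Fitted log2 fold changes of TPM + 1 (points) with 1 SE (bars) for each of the 9 unigenes, with a symbol for each of the 3 contrasts. DREB1E had the largest DS vs. CK value (6.47) and DREB3 DN9507 the lowest (-1.15), and no fold is drawn against RW for DREB3 DN19212_c1_g3, which was listed at 0 in RW.

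The order of levels within DS leaves was DREB3 DN12650, DREB1E, DREB1D DN19932, DREB3 DN18365, DREB1D DN19813, DREB3 DN19212_c1_g1, DREB3 DN18988, DREB3 DN19212_c1_g3 and DREB3 DN9507. Only 3 of the 8 neighbouring pairs in this order had ranges that did not overlap: DREB1D DN19932 over DREB3 DN18365, DREB3 DN18365 over DREB1D DN19813, and DREB3 DN18988 over DREB3 DN19212_c1_g3. The ranges of the first 3 unigenes overlapped, although DREB3 DN12650 was the highest of them within each DS library. In RW, DREB3 DN18365 had the highest mean, and in CK DREB3 DN12650, DREB3 DN18988 and DREB3 DN18365 led, with 1 of 8 neighbouring pairs not overlapping in either group.

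The abundant unigenes did not keep a fixed ratio across the stressed libraries. DREB1E stood at 0.701, 1.77 and 3.62 times the level of DREB1D DN19932 in DS 1, 2 and 3. DREB3 DN12650 stood at 5.19, 1.81 and 1.22 times the level of DREB1E, but at a steadier 3.64, 3.20 and 4.41 times that of DREB1D DN19932. Between the highest and the lowest DS library the level differed 3.46-fold for DREB3 DN12650, 3.87-fold for DREB1E and 4.76-fold for DREB1D DN19932, against 1.16-fold for DREB1D DN19813. DS 2 was the highest DS library for 4 unigenes, DS 3 for 4 and DS 1 for 1. DS 2 also had the lowest summed level of the mesophyll and of the xylem unigenes, and the part of this in its DREB levels was not tested.

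When unigenes with the same symbol were summed, DREB3 reached 291.08, 387.89 and 139.34 TPM in DS, against 22.48, 59.85 and 12.16 TPM in RW and 31.31, 39.48 and 29.11 TPM in CK. DN12650 made up 90.3, 91.2 and 73.4% of this sum in DS, 22.4, 5.83 and 15.7% in RW and 44.7, 33.7 and 18.3% in CK. A single unigene of the 6 thus supplied most DREB3 transcript in stressed leaves and a minority of it in watered ones. Summed DREB1D was at 81.01, 119.98 and 33.36 TPM in DS, at 0.58, 3.82 and 0.63 TPM in RW and at 0.34, 0.27 and 1.57 TPM in CK. DN19932 supplied 89.2, 92.0 and 69.5% of the DREB1D sum in the 3 DS libraries.

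The comparison of rewatered with never-stressed leaves asked whether the DREB levels had come back 2 days after water was returned. The CK libraries had entered the choice of the symbols, whereas the RW libraries had not. None of the 9 unigenes was called (limma, Benjamini-Hochberg adjusted p), and 1, DREB3 DN12650, had an unadjusted p under 0.05. Of all tested unigenes, 0% were called higher and 0.00225%, or 1 unigene, lower, while 2895 had an unadjusted p under 0.05. DREB3 DN12650 was 1.37 lower in RW than in CK on the log2 scale (SE 0.50, limma adjusted p = 0.745). Its RW level went past the CK level, and its RW vs. CK difference was -32.1% of its DS vs. CK difference.

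For the other unigenes called in DS vs. CK, RW lay close to CK on the log2(TPM + 1) scale, on which levels under 1 TPM differ little. DREB1E was 0.62 higher in RW than in CK (SE 0.51, limma adjusted p = 0.876), which is 9.61% of its DS vs. CK difference, and the RW vs. CK value was 0.26 without RW 2 and 0.95 without RW 1. Its mean was 0.787 TPM in RW and 0.08 TPM in CK, and the RW vs. CK value ran between 0.18 and 1.92 over the settings tried. DREB1D DN19932 differed by 0.09 between RW and CK (SE 0.57, limma adjusted p = 0.991), or 1.63% of the DS vs. CK difference. DREB1D DN19813 was 0.61 higher in RW than in CK (SE 0.46, limma adjusted p = 0.864), or 20.0% of the DS vs. CK difference, and 0.06 higher without RW 2. A p that misses the threshold does not show that RW and CK were equal.

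The DREB3 unigenes with smaller differences were more scattered. DREB3 DN18365 was 0.77 higher in RW than in CK (SE 0.52, limma adjusted p = 0.852), or 67.2% of its DS vs. CK difference, and again 0.06 higher without RW 2. DREB3 DN19212_c1_g1 was 0.85 lower in RW than in CK (SE 0.44, limma adjusted p = 0.801), or -57.9% of its DS vs. CK difference. Its RW and CK libraries overlapped, unlike those of DREB3 DN12650. DREB3 DN9507 was 0.73 lower in RW than in CK (SE 0.41, limma adjusted p = 0.825), or 63.0% of its DS vs. CK difference, and DREB3 DN18988 was 0.27 lower (SE 0.61, limma adjusted p = 0.970). RW 2 held the highest RW value for 5 of the 9 unigenes.

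Across the 9 libraries the likeness of the other DREB unigenes to DREB1E was graded. Pearson's r of log2(TPM + 1) was 0.969 between DREB1E and DREB1D DN19932, 0.956 between DREB1E and DREB1D DN19813, and 0.929 between DREB3 DN12650 and DREB1D DN19932. DREB3 DN19212_c1_g1 and DREB3 DN18365 came between, with an r of 0.792 and 0.563 with DREB1E. DREB3 DN9507 ran against DREB1E with an r of -0.70, and DREB3 DN18988 was near 0 with an r of -0.10. These values describe 9 points that share their libraries, of which the 3 DS ones stand apart.

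The 9 unigenes shared annotations that are not independent of the rule. DREB factors carry an AP2 domain by definition, and the Gene Ontology terms were the same for all unigenes of a symbol. A Pfam AP2 domain was annotated in 9 of 9, against 93 of all 52457 unigenes. All 6 DREB3 unigenes carried the Gene Ontology term for ethylene-activated signalling (170 unigenes in all), and both DREB1D unigenes carried that for abscisic acid-activated signalling (287 in all). DREB1E alone carried the term for regulation of gibberellin biosynthesis, held by 3 unigenes in all, and its orthologous group was named for DDF1 (dwarf and delayed flowering 1). Among the 80 other AP2 unigenes tested, a set formed after the values had been seen, limma called 18 higher and 2 lower in DS vs. CK, 21 higher and 2 lower in DS vs. RW, and 0 in RW vs. CK. The shares over all tested unigenes were 2.39% higher and 2.57% lower in DS vs. CK, and 2.15% and 1.79% in DS vs. RW.

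The other unigenes with a DREB or CBF description were 12, of which 11 were tested. They were DREB1/CBF and DREB2 factors and the DREB3 neighbour TRINITY_DN9507_c0_g1. In DS vs. CK 1 rose and 0 fell, in DS vs. RW 2 rose and 0 fell, and 0 passed in RW vs. CK. Over all tested unigenes 2.39% rose and 2.57% fell in DS vs. CK, and 2.15% rose and 1.79% fell in DS vs. RW. With an unadjusted limma p under 0.05 and the same minimum fold, 2 were higher and 1 lower in DS vs. CK, 2 higher and 4 lower in DS vs. RW, and 1 passed in RW vs. CK. Their median log2 fold change was 0.19, -0.53 and 0.53 in the 3 contrasts in this order. Most of the other family members were thus not called in either direction.

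A C-repeat binding factor 5 unigene (TRINITY_DN14758_c0_g1) was at 22.14, 13.79 and 30.99 TPM in DS, against 1.71, 0.96 and 5.87 TPM in RW and 1.14, 3.96 and 4.07 TPM in CK. It rose in DS vs. CK by 2.56 on the log2 scale (SE 0.54, limma adjusted p = 0.0267) and in DS vs. RW by 2.74 (limma adjusted p = 0.0220). The DS vs. CK call was lost when any one DS or CK library was left out, with adjusted p up to 0.0850, and the DS vs. RW call without DS 1, DS 3, RW 1 or RW 2. A C-repeat binding factor 7 unigene with the symbol DREB1A (TRINITY_DN26246_c0_g1) was at 20.59, 13.72 and 27.76 TPM in DS, 0.95, 3.77 and 7.79 TPM in RW and 3.63, 5.34 and 5.51 TPM in CK. It rose in DS vs. RW by 2.27 (SE 0.50, limma adjusted p = 0.0374), a call that 8 of the 9 omissions of a library ended, and missed the threshold in DS vs. CK (1.86, limma adjusted p = 0.0660). It passed in DS vs. CK with only the 6 libraries of the pair (adjusted p = 0.0229), without RW 1 (0.0235), without RW 3 (0.0431) and with a pseudocount of 5 TPM (0.0348). In both, DS 2 was the lowest DS library, whereas it was the highest for DREB3 DN12650, DREB1E and DREB1D DN19932.

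DREB1B (TRINITY_DN15021_c0_g2), the Arabidopsis cold factor CBF1, was at 17.73, 42.30 and 0.63 TPM in DS, at 0, 0.71 and 0 TPM in RW and at 0, 0.12 and 0 TPM in CK. It reached 1 TPM in too few libraries to be tested. DREB1A TRINITY_DN22858_c1_g1 was at 14.05, 15.56 and 35.13 TPM in DS, at 4.03, 26.08 and 26.55 TPM in RW and at 4.51, 12.37 and 12.36 TPM in CK, and its log2 fold change of 1.06 in DS vs. CK was not called (limma adjusted p = 0.412). DREB2A TRINITY_DN19632_c0_g6, of the branch that carries much of the drought response in Arabidopsis, was at 10.28, 9.02 and 9.05 TPM in DS, at 7.17, 3.95 and 7.95 TPM in RW and at 5.28, 7.12 and 6.22 TPM in CK. Its DS vs. CK difference of 0.54 was likewise not called (limma adjusted p = 0.312). Another DREB2A unigene (TRINITY_DN20063_c0_g1), named here after its values were seen, was at 0.28, 0.6 and 0.2 TPM in DS. It was at 1.98, 13.93 and 3.71 TPM in RW and at 1.89, 2.86 and 2.77 TPM in CK. This lower level in DS was not called (-1.37 in DS vs. CK, limma adjusted p = 0.191). A further DREB2A unigene, TRINITY_DN19632_c0_g5, was 0.43 higher in DS than in CK and not called. The DREB1C unigene that shares a component with DREB1D DN19813, named here after its values were seen, is a DREB1E by its description. Its symbol, DREB1C, put it outside the rule. It was at 2.12, 1.61 and 4.85 TPM in DS, at 4.56, 23.77 and 5.67 TPM in RW and at 2.59, 1.47 and 3.69 TPM in CK, and DS and CK overlapped.

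**Figure D3:**
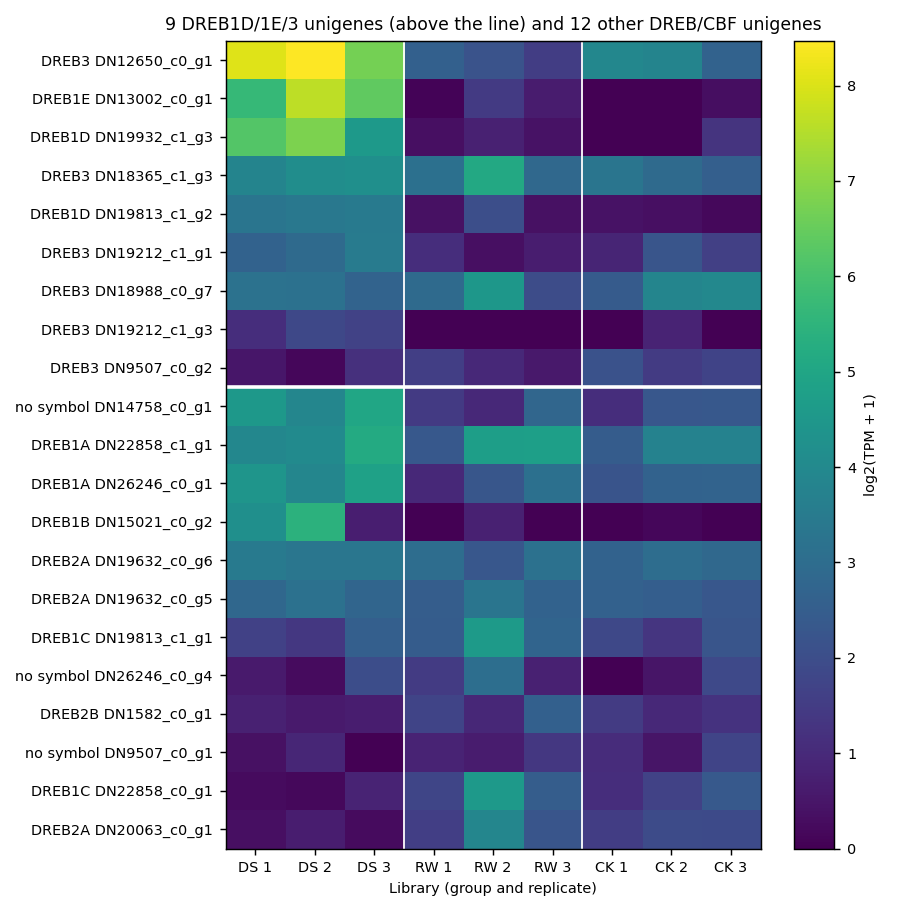
Level as log2(TPM + 1) (colour) of the 9 DREB1D, DREB1E and DREB3 unigenes (above the white line) and the 12 other DREB and CBF unigenes in each DS, RW and CK library. The upper 3 rows are bright in DS only, C-repeat binding factor 5 (DN14758) and DREB1A DN26246 are weaker in DS 2 than in DS 1 and 3, and DREB1B (DN15021) is bright in DS 1 and DS 2 but not in DS 3.

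Genes placed upstream of CBF and DREB factors in Arabidopsis were followed as 43 unigenes, of which 40 were tested. In DS vs. CK 2 rose and 1 fell, in DS vs. RW 2 rose and 1 fell, and 0 passed in RW vs. CK, where 2 had an unadjusted limma p under 0.05. The shares over all tested unigenes were 2.39% higher and 2.57% lower in DS vs. CK, and 2.15% and 1.79% in DS vs. RW. The list median was -0.07, -0.05 and 0.02 in the 3 contrasts. One match by symbol, CCA1, was a tRNA nucleotidyltransferase by its description and not the clock factor of that name.

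LHY (TRINITY_DN25317_c1_g1), a morning factor of the circadian clock that binds CBF promoters in Arabidopsis, was at 322.47, 312.93 and 431.54 TPM in DS, against 56.89, 55.89 and 54.94 TPM in RW and 41.02, 24.63 and 33.24 TPM in CK. It rose by 3.41 in DS vs. CK (SE 0.22, limma adjusted p = 5.3e-05) and by 2.63 in DS vs. RW. Unlike DREB1E and DREB1D DN19932, it was highest in DS 3. A calmodulin-binding transcription activator with the symbol CMTA3 (TRINITY_DN21889_c0_g1), whose Arabidopsis counterpart promotes CBF expression in the cold, was at 24.56, 10.64 and 17.31 TPM in DS, against 3.14, 4.39 and 3.30 TPM in RW and 3.55, 6.61 and 2.56 TPM in CK. It rose by 1.82 in DS vs. CK (SE 0.37, limma adjusted p = 0.0249) and by 1.94 in DS vs. RW (limma adjusted p = 0.0211). The DS vs. CK call was lost without CK 1, CK 3, DS 1 or DS 3, with adjusted p up to 0.0916, and with the replicate number as a block (adjusted p = 0.0573). The DS vs. RW call was lost without DS 1, DS 3, RW 1 or RW 3 (adjusted p up to 0.0809) and with the block (adjusted p = 0.0523).

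A kinase unigene with the symbol SRK2E (TRINITY_DN19936_c0_g1) fell in DS. SRK2E is the abscisic acid-activated kinase OST1 of Arabidopsis, which closes stomata and phosphorylates ICE1, an activator of CBF genes. The unigene was at 6.80, 8.03 and 9.21 TPM in DS, against 74.48, 87.84 and 93.17 TPM in RW and 67.28, 90.25 and 88.85 TPM in CK. Its log2 fold change was -3.20 in DS vs. CK (SE 0.20, limma adjusted p = 3.8e-05) and -3.26 in DS vs. RW. Another unigene with this symbol (TRINITY_DN20486_c0_g1) was at 11.68, 12.29 and 14.55 TPM in DS, 8.66, 12.36 and 5.74 TPM in RW and 9.26, 10.08 and 9.45 TPM in CK, and was not called (0.38 in DS vs. CK, limma adjusted p = 0.465). The 3 unigenes for ICE1 and its relative (SCRM and SCRM2) were not called, with DS vs. CK values of -0.79, -0.59 and -0.59.

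Genes known or named as targets of the CBF and DREB factors, or for early response to dehydration, were 53 unigenes, of which 44 were tested. In DS vs. CK 9 rose and 2 fell, in DS vs. RW 8 rose and 1 fell, and 0 passed in RW vs. CK, where 2 had an unadjusted limma p under 0.05. Over all tested unigenes 2.39% rose and 2.57% fell in DS vs. CK, and 2.15% rose and 1.79% fell in DS vs. RW. The list median was 0.05, -0.12 and -0.04 in the 3 contrasts, and most members of the list were not called. The higher count in DS vs. CK fell to 5 without any one CK library or DS 1 and to 4 without DS 2, and in DS vs. RW to 5 without DS 2, DS 3 or RW 3. Among those that rose were ERD14 and ERD7, both named for their induction by dehydration, and 3 late embryogenesis abundant or desiccation protectant proteins, named here after their values were seen.

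ERD15 (TRINITY_DN14220_c0_g2), a small protein that dampens abscisic acid responses in Arabidopsis, was at 635.32, 807.42 and 736.68 TPM in DS, against 73.98, 55.91 and 57.90 TPM in RW and 41.09, 91.91 and 66.77 TPM in CK. It rose by 3.49 in DS vs. CK (SE 0.28, limma adjusted p = 0.000197) and by 3.52 in DS vs. RW. Dehydrins, water-binding proteins that protect membranes and enzymes in drying cells, were among the most abundant. Dehydrin HIRD11 (TRINITY_DN17256_c0_g3) was at 1367.57, 1053.01 and 1122.10 TPM in DS, 310.69, 389.62 and 275.75 TPM in RW and 237.22, 361.22 and 351.04 TPM in CK, a rise of 1.91 in DS vs. CK (SE 0.23, limma adjusted p = 0.00199). A dehydrin b unigene (TRINITY_DN19327_c0_g1) was at 1844.27, 1607.41 and 1169.21 TPM in DS, 320.27, 302.73 and 281.47 TPM in RW and 476.83, 244.31 and 312.63 TPM in CK, a rise of 2.19 in DS vs. CK and of 2.33 in DS vs. RW. These named unigenes were spread less over the DS libraries than DREB3 DN12650, DREB1E or DREB1D DN19932. They were picked by smallest p, which favours a low spread, so this is no separate result. ERD7 (TRINITY_DN20346_c0_g1), also called higher in DS vs. CK, was at 82.9, 135.7 and 47.24 TPM in DS.

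Another ERD15 unigene (TRINITY_DN18670_c0_g1) went the other way, at 13.95, 11.07 and 14.51 TPM in DS, 120.34, 60.89 and 78.66 TPM in RW and 69.18, 93.03 and 130.33 TPM in CK. It fell by 2.76 in DS vs. CK (SE 0.30, limma adjusted p = 0.00104) and by 2.58 in DS vs. RW. A late embryogenesis abundant unigene (TRINITY_DN18486_c0_g1) fell by 1.02 in DS vs. CK (limma adjusted p = 0.0183), a call lost without CK 3, DS 1 or DS 2 and after median-of-ratios scaling. The 4 unigenes of galactinol synthase (GOLS1 and GOLS2), the first enzyme of raffinose synthesis, and RAP2-1, an AP2 factor induced by CBF in Arabidopsis, were not called in any contrast.

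The unigenes whose levels ran most like each abundant DREB unigene were sought among 7650 described unigenes with at least 20 TPM in their highest group mean. For DREB1D DN19932 they were a C2 domain protein (TRINITY_DN25255_c0_g1, r = 0.9885), the U-box ubiquitin ligases PUB20 (0.9877), PUB22 (0.9877) and PUB21 (0.9875), and an amino acid transporter (TRINITY_DN17588_c0_g2, 0.9862). PUB22 averaged 110.8 TPM in DS, 0.63 TPM in RW and 0.723 TPM in CK. For DREB1E they were the GRAS protein SCL14 (0.9965), the Nudix hydrolase NUDT4 (0.993) and the AP2 factors ERF017 (0.9919), ERF109 (0.9894) and ERF026 (0.9885). ERF109 averaged 564.1 TPM in DS, 2.69 TPM in RW and 0.0533 TPM in CK, and like DREB1E was highest in DS 2.

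For DREB3 DN12650 the most alike were an ADP-ribosylation factor (ARF1, r = 0.9879), the jasmonate synthesis enzymes OPR3 (0.9855) and AOS1 (0.9818), the kinase RIPK (0.984) and a heat shock cognate protein (MED37D, 0.9835). OPR3 averaged 45.01 TPM in DS, 2.12 TPM in RW and 4.88 TPM in CK. An r of at least 0.95 was reached by 102 candidates (1.33%) for DREB1D DN19932, 132 (1.73%) for DREB1E and 48 (0.627%) for DREB3 DN12650. The correlations describe 9 libraries in which the 3 DS libraries stand apart, and any unigene high in DS only will score highly. The named unigenes were picked for likeness over these same libraries. A shared highest library or a shared order of RW and CK is therefore no separate result.

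**Figure D4:**
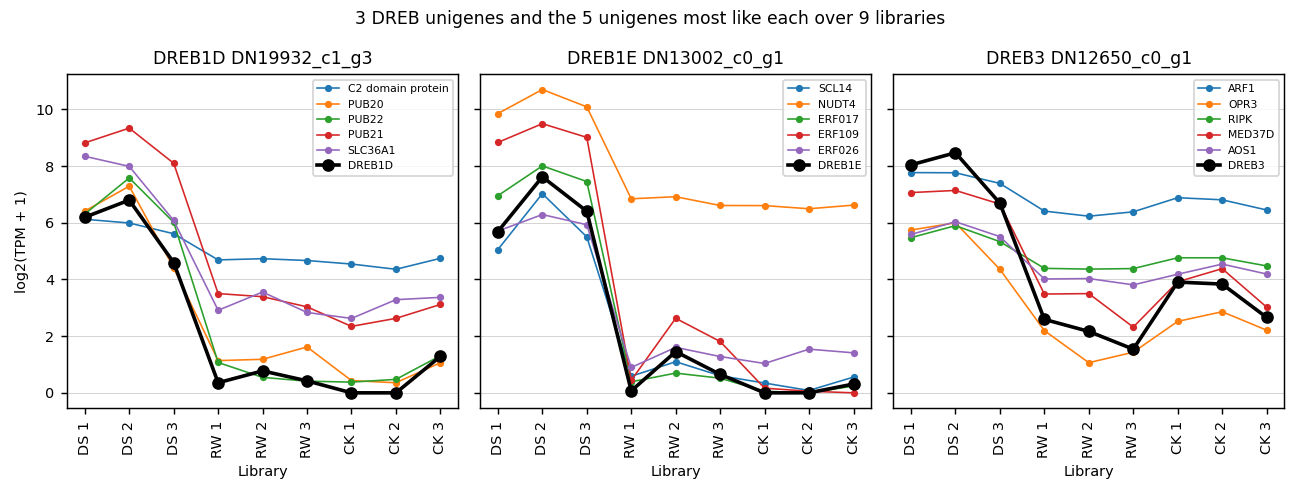
Level as log2(TPM + 1) of DREB1D DN19932, DREB1E and DREB3 DN12650 (black) and of the 5 described unigenes most like each (colours) in the 9 libraries. The DREB1E group peaks in DS 2, and the DREB3 group lies lower in RW than in CK, which is part of the likeness that they were picked for.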

How the data were processed

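Leaf RNA was sequenced in 9 libraries, 3 each of DS, RW and CK. The authors deposited TPM values per unigene, without read counts. They had trimmed the reads with Cutadapt, built the unigenes de novo with Trinity, keeping the longest transcript of a cluster, and quantified them with Salmon. HISAT2 2.0 and StringTie 1.3.0 also stand in the submitters' processing notes, but what they were used for is not given in the sources used here. TPM keeps no depth, and unigenes of a gene family can share reads.

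The 44538 of 52457 unigenes that reached 1 TPM in 3 or more libraries were tested on log2(TPM + 1) with limma 3.58.1 (R 4.3.3, statmod 1.5.0), in a single fit of the 3 group means with trended and robust empirical Bayes moderation. A call needed p under 0.05, two-sided and adjusted over all tested unigenes by the Benjamini-Hochberg method, and a log2 fold change beyond 1. With 3 libraries against 3, the smallest exact permutation p is 0.1. Whether replicates came from separate pots is not in the labels, and the p-values therefore reflect library-to-library spread only.

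Members and lists were chosen with earlier results of these data known. Named were all 9 unigenes, the other DREB and CBF factors that were called and the 3 uncalled ones with the highest mean, up to 3 called unigenes per direction, contrast and other list with the smallest p, and the 5 unigenes with the highest r. The steps were tested on simulated data. The calls were repeated with an unadjusted p, without a minimum fold, on the 6 libraries of a pair, with a replicate block, without each library in turn, with other pseudocounts and filters, after median-of-ratios and quantile scaling, and on sums by symbol. Deviations of same-numbered libraries of different groups were close to uncorrelated over all tested unigenes, which does not exclude a shared pot or day.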

Additional observations from a re-analysis of the deposited data

How the results depend on the processing

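The fitted log2 fold changes of the 9 DREB unigenes in the 3 contrasts were recomputed in 498 alternative values. Of these, 471 kept direction and call, 10 lost a call, 7 gained one and 10 changed sign, all of the last uncalled either way. The count of 471 overstates stability, because several settings cannot change a fold or its sign. These are the unadjusted p, no minimum fold, the 6 libraries of a pair, the replicate block and the omission of a library outside the contrast. With an unadjusted p the calls were 6358 in DS vs. CK, 5354 in DS vs. RW and 1934 in RW vs. CK, against 2209, 1755 and 1 with adjustment, and DREB calls were 7 in DS vs. CK and 1 in RW vs. CK. With only the 6 libraries of a pair, 1151 were called in DS vs. RW and 2 in RW vs. CK. A pseudocount of 0.1 TPM and sums by symbol both gave 0 in RW vs. CK, and by symbol all 3 DREB symbols were called in DS vs. RW, fewer than 5 because fewer features were tested. Leaving out 1 library gave 925 to 2437 calls in DS vs. CK (1247 without CK 2, 925 without CK 3, 1160 without DS 1 and 942 without DS 2), 832 to 1555 in DS vs. RW (1020 without DS 1, 854 without DS 2, 1097 without RW 1 and 832 without RW 3) and 0 to 3 in RW vs. CK (3 without CK 2, 0 without CK 3), and 4 to 5, 3 to 5 and 0 DREB calls in these contrasts.

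The DREB1D DN19813 call in DS vs. RW was lost with only the 6 libraries and without DS 1, DS 2, DS 3, RW 1 or RW 3. That of DREB3 DN19212_c1_g1 was lost without DS 2, DS 3, RW 2 or RW 3. In these settings their log2 fold changes stayed above 2. DREB3 DN18365 was called in DS vs. CK only without RW 2, and DREB3 DN19212_c1_g3 was called in DS vs. RW after quantile normalization. Signs changed for DREB1D DN19932 in RW vs. CK (-0.13 without CK 1 or CK 2, -0.04 without RW 2, -0.050 after quantile normalization, and -0.13 to 0.52 over the omissions), for DREB3 DN18988 in DS vs. RW (0.047 without DS 3, 0.56 without RW 2, 0.0097 after median-of-ratios scaling, 0.069 after quantile normalization, and -0.70 to 0.56 over the omissions) and in RW vs. CK (0.31 without RW 3, and -0.95 to 0.31 over the omissions), for DREB3 DN18365 in DS vs. RW (-0.049 without RW 3, and -0.049 to 1.08 over the omissions) and for DREB1A DN22858_c1_g1 in DS vs. RW (-0.39 without RW 1, and -0.39 to 0.83 over the omissions). The causes were not tested.

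Same-numbered libraries of different groups had deviations that correlated at -0.0945 to 0.0627 over all tested unigenes. Low correlations cannot show that the numbers mark no shared pot or day. A replicate block lowered the SE of DREB3 DN12650 in DS vs. CK from 0.50 to 0.25. With the replicate number as a block, 1564 unigenes were called in DS vs. CK, 1334 in DS vs. RW and 1 in RW vs. CK, and of the DREB unigenes 4, 5 and 0. Median-of-ratios scaling moved the share of calls that were higher in DS vs. CK to 63.5% (1338 higher, 768 lower), against 48.3% on TPM as deposited, and in DS vs. RW to 66.8%, against 54.5%. Quantile normalization gave 62.9% and 69.2%. The median over all tested unigenes moved to -0.04 in DS vs. CK after median-of-ratios scaling, against -0.19 on TPM as deposited, and that of the DREB unigenes to 1.63, against 1.47. Read counts per unigene are unknown, so a level listed at 0 has no stated detection limit.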
